A study of Mus musculus with 41 samples.

Results

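H3K4me2, histone H3 carrying 2 methyl groups on lysine 4, was mapped in wild type mouse cortical neurons after 1 h of depolarization by KCl and in undepolarized neurons (0 h). The list of called regions held 15081 regions at 1 h and 16358 regions at 0 h on chromosomes 1 to 19, 31439 in all. These are 2 of the 27 region lists and 31439 of the 483577 regions on those chromosomes in the series, taken by antibody, genotype and time from the sample labels. What follows describes how regions narrowed, split, disappeared or appeared between the 2 lists, and which of them lay at sites of the demethylase LSD1, at RNA polymerase II or at H3K4me1.

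The neurons are labelled mouse primary cortical neurons, LSD1n WT, and were kept 10 days in vitro. The 1 h culture stayed 1 h in a bath of 55 mM KCl, and the 0 h culture is titled as being without KCl. Both libraries were made with a Millipore antibody to H3K4me2 and their titles share a prefix. Pol II and H3K4me1 lists at 1 h and 0 h carry the label LSD1n WT. Flag-LSD1n sites came from neurons labelled R26/LSD1n and Flag-LSD1c sites from neurons labelled R26/LSD1c, each at 1 h and 0 h, so the tagged isoforms were mapped in other neurons than H3K4me2. A further pair of lists, at 1 h and 0 h, was made with an LSD1 antibody in neurons labelled wild type. Names inside the Pol II lists contradict the labelled genotype; the labels were followed, and the genotype of the Pol II sites is uncertain. Gene annotation of build mm9 was not used here; regions are therefore given by position, and neuronal identity was not checked against marker genes.

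H3K4 methylation marks promoters and enhancers. Trimethylation is typical of active promoters, monomethylation of enhancers and promoter flanks, and dimethylation is found at both. LSD1 (KDM1A) removes methyl groups from mono- and dimethylated lysine 4 of histone H3. LSD1n is a neuronal splice form with an additional short exon, and LSD1c is here the label of the other tagged isoform. Depolarization by KCl opens voltage-gated calcium channels and starts activity-dependent transcription, and Pol II sites mark promoters and transcribed elements.

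Each time point is 1 library, so no difference was tested and no p-value is given. Ranges in brackets are exact intervals at 95%, which reflect counting error alone. The libraries also differed in depth: 6990017 tags at 1 h and 9418008 tags at 0 h. The share of tags inside regions was 6.62% at 1 h and 7.35% at 0 h, and a peak needed 12 tags at 1 h and 13 tags at 0 h, equal to 17.2 tags per 10000000 at 1 h and 13.8 at 0 h. A 1 h peak thus had to be the stronger one relative to depth. The part of this depth difference in the results was not tested. In bulk cultures, a mark in fewer cells and less of it per cell cannot be told apart. Called bases carried 36.7 tags per kb per 10000000 tags at 1 h and 30.7 at 0 h.

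The H3K4me2 landscape was made of narrower regions at 1 h. Widths had a median of 841 bp at 1 h, against 1185 bp at 0 h. The middle 50% ran from 501 to 1521 bp in the 1 h list and from 641 to 1909 bp in the 0 h list. Regions of 501 bp, the commonest width, or less (1 region of 435 bp at 0 h) made up 27.4% (26.7 to 28.1) at 1 h and 20.8% (20.2 to 21.4) at 0 h. Regions of 2500 bp or more numbered 1139 at 1 h and 2111 at 0 h, 7.55% (7.14 to 7.99) and 12.9% (12.4 to 13.4). The change in number thus went in opposite directions at the 2 ends of the width scale. The log2 ratio of region numbers (1 h over 0 h) was 0.28 (0.21 to 0.35) under 600 bp, 0.28 (0.22 to 0.35) from 600 to 999 bp and -0.21 (-0.28 to -0.13) from 1000 to 1499 bp. From 1500 to 2499 bp it was -0.61 (-0.68 to -0.54), and from 2500 bp it was -0.89 (-1.0 to -0.79). The widest region of each list measured 47913 bp at 1 h, against 71331 bp at 0 h.

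**Figure D1:**
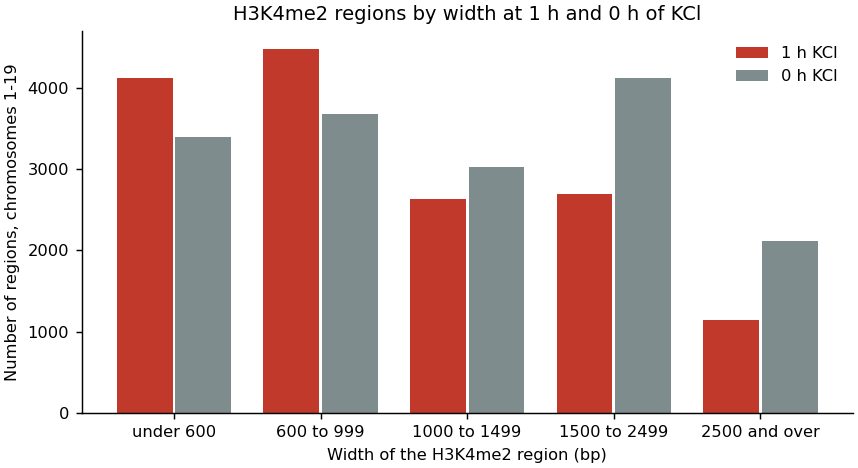
Number of H3K4me2 regions on chromosomes 1 to 19 (vertical axis) in 5 bins of region width in bp (horizontal axis), 1 h of KCl in red and 0 h in grey, 1 library each. The 1 h bars are higher in both bins under 1000 bp and lower in the other bins, with 1139 regions at 1 h and 2111 regions at 0 h in the widest bin.

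To follow single regions, the lists were joined wherever a 1 h and a 0 h region overlapped by at least 1 bp. A 0 h region with no partner is called lost and a 1 h region with no partner gained; these words describe the lists, not the mark on single chromosomes. Of the 0 h regions, 4944 were lost, 30.2% (29.5 to 30.9), with a median width of 625 bp. Of the 1 h regions, 3026 were gained, 20.1% (19.4 to 20.7), with a median width of 501 bp. A single partner at the other time was found for 10344 regions. A further 739 regions of 0 h, 4.52% (4.20 to 4.85), were split, which means that several 1 h regions lay in 1 region of 0 h. The reverse, several 0 h regions within 1 region of 1 h, gave 132 merged regions at 1 h from 266 regions at 0 h, and 65 regions of 0 h were in mixed groups. Splitting was thus the more frequent of the pair, with 739 split regions against 132 merged ones.

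Matched pairs narrowed more often than they widened. Past a width ratio of 1.5, 3216 of 10344 pairs narrowed, 31.1% (30.2 to 32.0), and 922 widened, 8.91% (8.37 to 9.48). The median ratio of widths, 1 h over 0 h, was 0.86, and 62.8% of pairs were narrower at 1 h by any amount. With each ratio divided by that median, which takes out a shift shared by all pairs, 23.4% (22.6 to 24.2) narrowed and 15.2% (14.5 to 15.9) widened. The excess of narrowing remained in direction and was smaller in size.

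The class of a region followed its width at 0 h. Under 600 bp, 72.6% (71.0 to 74.1) of regions were lost. From 600 to 999 bp 39.9% (38.3 to 41.5) were lost, from 1000 to 1499 bp 17.5% (16.2 to 18.9), from 1500 to 2499 bp 10.2% (9.31 to 11.2), and from 2500 bp 2.51% (1.89 to 3.27). Wide regions were instead split or narrowed. Of those of 2500 bp or more, 25.1% (23.2 to 27.0) were split and 26.2% (24.3 to 28.1) narrowed, while 4.65% (4.03 to 5.33) of regions from 1500 to 2499 bp were split and 35.3% (33.9 to 36.8) narrowed. No region under 600 bp narrowed or was split, since all but 1 of these were already at 501 bp, and a region needs width to be split. Gained regions showed the same gradient with their width at 1 h: 45.6% (44.0 to 47.1) of 1 h regions under 600 bp were gained, and 0.351% (0.0958 to 0.897) of those of 2500 bp or more.

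**Figure D2:**
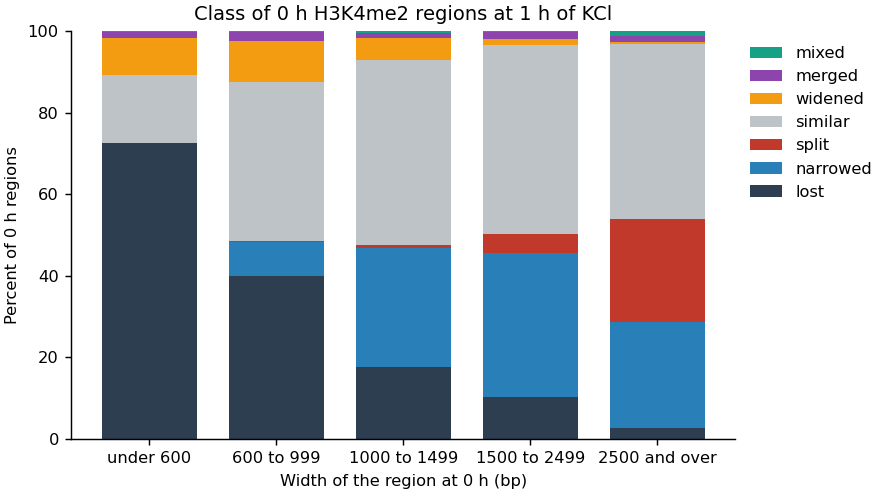
Percent of 0 h H3K4me2 regions in each class (vertical axis, stacked to 100) by width at 0 h in bp (horizontal axis). The lost share is 72.6% in the narrowest bin and 2.51% in the widest, where split regions take 25.1%.

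The width ratio depended on the list by which pairs were sorted. Sorted by 0 h width, the median ratio of 1 h over 0 h width was 1.29 under 600 bp, 0.99 from 600 to 999 bp, 0.81 from 1000 to 1499 bp, 0.76 from 1500 to 2499 bp and 0.77 from 2500 bp. Sorted by 1 h width the same pairs had median ratios of 0.53, 0.70, 0.91, 1.01 and 1.04 over the same bins. Wide 0 h regions were therefore narrower at 1 h, but regions wide at 1 h were about as wide at 0 h. Any sorting on 1 of 2 variable widths pulls its bins in this way, so the trend over bins is no measure of a preference for wide regions.

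Counted in bases, 12.1 Mb were called at both times, 51.1% of the 0 h bases and 67.8% of the 1 h bases. Another 11.6 Mb were called at 0 h alone and 5.75 Mb at 1 h alone. Lost regions supplied 33.6% of the bases called at 0 h alone, narrowed regions 32.5%, pairs of similar width 21.0% and split regions 10.6%. Of the bases called at 1 h alone, 33.3% were in gained regions and 36.8% in pairs of similar width, whose edges moved without a large change in width. Pairs of similar width, 6206 of all pairs, had a median shift of the centre of 296 bp. In 63.9% (62.2 to 65.6) of narrowed regions at least 80% of the lost bases were at the same end, less often than in pairs of similar width, with 79.8% (78.8 to 80.8). The centre of the 0 h region was no longer called in 53.5% (51.8 to 55.3) of narrowed regions, against 1115 of the 6206 pairs of similar width (17.0% to 18.9%).

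Some gained regions lay beside regions already present. Of the gained regions, 34.1% (32.4 to 35.8) were within 1 kb of a 0 h region, at a median distance of 6.27 kb. Of the lost regions, 18.9% (17.8 to 20) were within 1 kb of a 1 h region, at a median distance of 17.3 kb. Counting a partner within 1 kb as shared left 13.2% (12.7 to 13.8) of 1 h regions gained and 24.5% (23.9 to 25.2) of 0 h regions lost. The classes were spread over the genome. Over the 19 chromosomes the lost share ran from 25.2% on chromosome 19 to 35.6% on chromosome 13, and the split share from 2.16% on chromosome 16 to 5.87% on chromosome 1. The median width ratio of pairs lay between 0.83 and 0.89 on every one of the 19.

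Flag-LSD1n at 1 h was found more often at narrowed and split regions than at lost ones. Over all 0 h regions 21.9% overlapped a 1 h Flag-LSD1n site. The share was 33.8% (32.2 to 35.5) of narrowed regions, 34.8% (31.3 to 38.3) of split regions and 10.7% (9.85 to 11.6) of lost regions. Pairs of similar width had 24.3% and widened regions 17.7%. For narrowed and split regions these differences were largely those of width. A share at the same widths was computed by giving each region of a class the share of all 0 h regions in its width bin, which gave 31.0% for narrowed, 32.2% for split and 11.7% for lost regions. The remaining differences were 2.81 points (1.18 to 4.48) for narrowed, 2.59 points (-0.846 to 6.15) for split and -1.05 points (-1.90 to -0.155) for lost regions. These shares include the class itself, which shrinks what remains, above all for lost regions. Lost regions were 72.6% of the bin under 600 bp, so their value does not show how much of the difference is width. Within the widest bin, 24.6% (21.3 to 28.2) of regions with a 1 h Flag-LSD1n site were split and 25.2% (23.0 to 27.5) of regions without, a difference not detectable at these numbers. In that bin 31.1% (27.5 to 34.8) of regions with the site narrowed, against 24.1% (21.9 to 26.4) without. From 1500 to 2499 bp these were 37.5% (35.1 to 39.9) with the site and 33.9% (32.1 to 35.8) without, and from 1000 to 1499 bp 30.9% (27.7 to 34.2) with it and 28.9% (27.0 to 30.8) without, with overlapping ranges. Among narrow regions the site went with fewer losses: under 600 bp, 45.2% (36.2 to 54.3) of regions with it were lost, against 73.6% (72.1 to 75.1) without. With Flag-LSD1n sites of 0 h no such excess of narrowing was detectable in the widest bin. There 26.2% (18.8 to 34.8) of 126 regions with a site narrowed and 26.2% (24.3 to 28.2) without, but the first range includes the 31.1% seen with 1 h sites. In that bin 34.1% (25.9 to 43.1) of regions with a 0 h site and 24.5% (22.6 to 26.4) without were split.

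Flag-LSD1c at 1 h overlapped 27.0% of all 0 h regions, 41.4% (39.7 to 43.1) of narrowed, 51.3% (47.6 to 54.9) of split and 12.4% (11.5 to 13.3) of lost regions. At the same widths the shares were 38.6%, 46.2% and 13.5%, leaving 2.78 points (1.07 to 4.50), 5.06 points (1.39 to 8.72) and -1.06 points (-1.97 to -0.110). In the widest bin 30.7% (27.8 to 33.6) of regions with the site narrowed and 22.3% (19.9 to 24.8) without, and 246 of 985 with it and 283 of 1126 without were split. From 1500 to 2499 bp, 6.31% (5.27 to 7.49) of regions with the site were split, against 3.18% (2.49 to 4) without. Under 600 bp, 46.0% (37.6 to 54.7) of regions with it were lost, against 73.7% (72.2 to 75.2) without. Narrowing at widths from 2500 bp was thus more frequent with a 1 h site of either isoform, by 7.00 points for Flag-LSD1n and 8.37 points for Flag-LSD1c. This was not particular to sites of 1 h. With Flag-LSD1c sites of 0 h, 32.9% (29.2 to 36.8) narrowed, against 23.5% (21.4 to 25.7) without, a difference of 9.39 points. For the LSD1 antibody it was 5.99 points with sites of 0 h and 4.29 points, with overlapping ranges, at 1 h. The isoforms were not tested against each other, and their site lists overlap.

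Pol II at 0 h overlapped 53.9% of all 0 h regions, 76.0% (74.4 to 77.4) of narrowed, 91.5% (89.2 to 93.4) of split and 24.8% (23.6 to 26.1) of lost regions. At the same widths the shares were 73.9%, 85.9% and 30.0%, so that 2.03 points (0.510 to 3.49), 5.61 points (3.35 to 7.52) and -5.19 points (-6.39 to -3.96) remained. Under 600 bp, 48.8% (43.6 to 54.0) of regions with a 0 h Pol II site were lost, against 75.5% (73.9 to 77.0) without, a difference of -26.7 points beside -28.5 for Flag-LSD1n and -27.7 for Flag-LSD1c at 1 h. From 600 to 999 bp the lost shares were 29.1% (26.5 to 31.7) with Pol II and 45.2% (43.2 to 47.2) without. Among regions of 2500 bp or more, Pol II went with splitting, at 26.3% (24.3 to 28.4) with a site and 16.3% (12 to 21.3) without, and not detectably with narrowing, at 25.9% (23.9 to 27.9) and 28.4% (23.0 to 34.3).

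**Figure D3:**
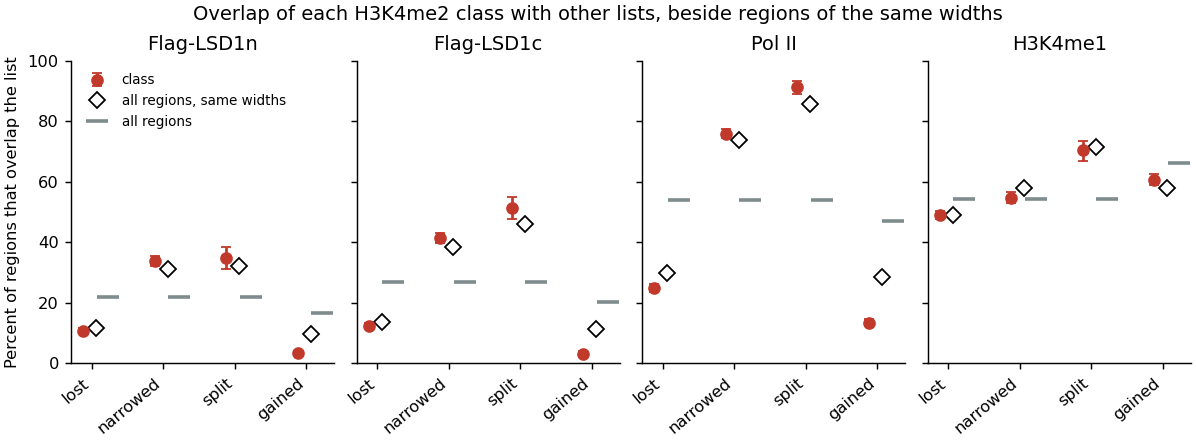
Percent of H3K4me2 regions that overlap each list (vertical axis) for lost, narrowed, split and gained regions (red, with 95% exact intervals), beside all regions weighted to the same widths (diamonds) and all regions (grey lines). Flag sites are those of 1 h; Pol II and H3K4me1 are the 0 h lists for lost, narrowed and split regions and the 1 h lists for gained ones. The classes lie close to the diamonds except gained regions, which lie below them for Flag-LSD1n, Flag-LSD1c and Pol II (13.4% against 28.4%). The diamonds include the class itself, which draws them towards it, above all for lost regions (72.6% of 0 h regions under 600 bp).

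Gained regions were poor in every list of sites. At 1 h, 16.6% of all 1 h regions overlapped Flag-LSD1n, 20.3% Flag-LSD1c and 47.0% Pol II, and the gained ones had 3.21% (2.61 to 3.90), 3.17% (2.58 to 3.86) and 13.4% (12.2 to 14.7). Part of this goes with their small width: the shares at the same widths were 9.50%, 11.4% and 28.4%. The differences that remained were -6.29, -8.21 and -14.9 points. They cannot be ranked against those of lost regions, because each share at the same widths includes the class itself. Gained regions were 45.6% of the 1 h bin under 600 bp, and lost regions 72.6% of the 0 h bin. Under 600 bp, the gained share with a 1 h site minus that without was -31.6 (Flag-LSD1n), -34.6 (Flag-LSD1c) and -32.1 points (Pol II). For the lost share these were -28.5 and -27.7 points, and -26.7 for Pol II at 0 h. In the narrowest bin, 19.9% (17.2 to 22.8) of 1 h regions with a 1 h Pol II site were gained, against 52.0% (50.2 to 53.7) of those without. Gained regions overlapped H3K4me1 at 1 h in 60.7% (59.0 to 62.5), against 66.4% of all 1 h regions and 57.9% at the same widths.

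H3K4me1 differed less between the classes than Pol II did. At 0 h it overlapped 54.5% of all 0 h regions, 49.0% (47.6 to 50.4) of lost, 54.8% (53.1 to 56.6) of narrowed and 70.4% (66.9 to 73.6) of split ones. At the same widths these were 49.2%, 58.1% and 71.4%, so narrowed regions had 3.25 points less H3K4me1 than regions of their width (difference -3.25, -4.98 to -1.51), and no remaining difference was detectable for lost or split regions. The relation to loss turned with width. Under 600 bp, 75.6% (73.4 to 77.6) of regions with H3K4me1 were lost and 69.8% (67.6 to 71.9) of those without; from 1500 to 2499 bp these were 8.17% (7.11 to 9.34) with it and 13.1% (11.5 to 14.8) without. Among regions from 1500 to 2499 bp 32.5% (30.6 to 34.4) with H3K4me1 narrowed, against 39.2% (36.9 to 41.6) without.

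Pol II and H3K4me1 were combined to see the settings in which regions were lost. Regions with both at 0 h, of median width 1935 bp, were lost in 8.27% (7.51 to 9.09). Regions with Pol II alone (1449 bp) were lost in 20.6% (19.3 to 21.9), with H3K4me1 alone (677 bp) in 48.8% (47.3 to 50.4), and with neither (637 bp) in 49.8% (48.1 to 51.5). At 1 h the gained share was 4.19% (3.64 to 4.79) with both, 9.09% (7.93 to 10.4) with Pol II alone, 31.8% (30.5 to 33.1) with H3K4me1 alone and 34.6% (32.8 to 36.4) with neither. Turnover in either direction was thus most frequent away from Pol II, where regions are also narrow.

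The fate of H3K4me2 was then set against sites that were themselves called at a single time. Of lost regions, 6.98% (6.28 to 7.72) had a Pol II site at 1 h alone and 2.06% (1.69 to 2.50) at 0 h alone, while 68.2% (66.9 to 69.5) had none at either time. Pairs with a single partner had 8.74% (8.20 to 9.30) at 1 h alone, 3.89% (3.52 to 4.28) at 0 h alone and 25.6% (24.7 to 26.4) with none. Read from the Pol II side, 53.9% (52.7 to 55.2) of the 6252 regions with none at either time were lost. Of the 531 regions with Pol II at 0 h alone 19.2% (15.9 to 22.8) were lost, and of the 1292 with it at 1 h alone 26.7% (24.3 to 29.2). With Pol II at both times 13.6% (12.9 to 14.4) were lost. These groups differ in width, and their order changed between width bins. Under 600 bp the lost shares were 61.2% (0 h alone), 62.8% (1 h alone) and 46.0% (both times). From 1000 to 1499 bp they were 16.7%, 15.6% and 16.7%, and from 1500 to 2499 bp 2.27%, 8.37% and 9.88%. H3K4me1 was called at both times in 40.5% (39.2 to 41.9) of lost regions and in 40.3% (38.5 to 42.0) of gained ones, at 1 h alone in 990 lost and 620 gained regions, and at neither time in 31.0% and 30.3%. Lost and gained regions were alike in this respect to within 1 point.

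Counted over single bases, H3K4me1 at 1 h covered 37.1% of the lost bases, 45.6% of the gained and 40.2% of the kept bases, and at 0 h 26.4%, 32.7% and 26.1%. Gained bases carried more H3K4me1 than kept bases at both times. Bases that lost the H3K4me2 call were covered by H3K4me1 about as often as kept bases, with a difference of -3.08 points at 1 h and 0.292 points at 0 h. Neighbouring bases are not independent, so no interval is given.

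Viewed from the sites, H3K4me2 was called less often at 1 h around every kind of site. The centres of 4336 Flag-LSD1n sites called at 1 h lay in an H3K4me2 region in 54.2% (52.7 to 55.7) at 1 h and in 82.1% (80.9 to 83.2) at 0 h, a ratio of 0.660. For 5437 Flag-LSD1c sites at 1 h these were 52.8% (51.4 to 54.1) at 1 h and 82.3% (81.2 to 83.3) at 0 h. For 13839 Pol II sites at 1 h they were 48.9% (48.1 to 49.8) at 1 h and 69.8% (69.0 to 70.5) at 0 h, and for 18258 sites of the LSD1 antibody in wild type neurons 27.2% (26.5 to 27.8) at 1 h and 39.6% (38.9 to 40.3) at 0 h. The ratio for the whole list, by covered length, was 0.753. All these site lists were below it at their centres, with ratios of 0.641 for Flag-LSD1c and 0.702 for Pol II. These ratios also count centres newly covered at 1 h, so they are not shares kept. Of 1 h site centres covered at 0 h, 58.4% (Flag-LSD1n), 57.5% (Flag-LSD1c), 59.7% (Pol II) and 55.5% (LSD1 antibody) stayed covered. Of all 0 h bases 51.1% did. Newly covered were 271 of the 2350 Flag-LSD1n centres covered at 1 h, and 32.2% of all 1 h bases.

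The ratio of 1 h over 0 h coverage was lower at the centres of 1 h sites than 1500 bp away. It again counts newly covered positions, and the share kept was not computed by distance, so it does not show more loss at the centres. At Flag-LSD1n 1 h sites, positions 1500 bp away were covered in 12.7% at 1 h and 15.9% at 0 h, a ratio of 0.797, against 0.660 at the centre. At Pol II 1 h sites the ratio was 0.702 at the centre and 0.805 at 1500 bp. At Flag-LSD1c 1 h sites it was 0.641 and 0.738. Sites of the LSD1 antibody at 0 h had nearly the same ratio at both distances, 0.735 at the centre and 0.747 at 1500 bp. Whether the tagged site was present at 0 h made little difference: of the centres of 4005 Flag-LSD1n sites called at 1 h alone, 54.9% (53.3 to 56.4) lay in H3K4me2 at 1 h, against 83.0% (81.8 to 84.2) at 0 h, a ratio of 0.661. For 331 sites called at both times the coverage was 46.2% (40.8 to 51.8) at 1 h, against 70.4% (65.2 to 75.3) at 0 h, a ratio of 0.657, and for 471 sites called at 0 h alone the ratio was 0.644. Sites that were new at 1 h and sites that were no longer called at 1 h thus had nearly equal ratios.

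**Figure D4:**
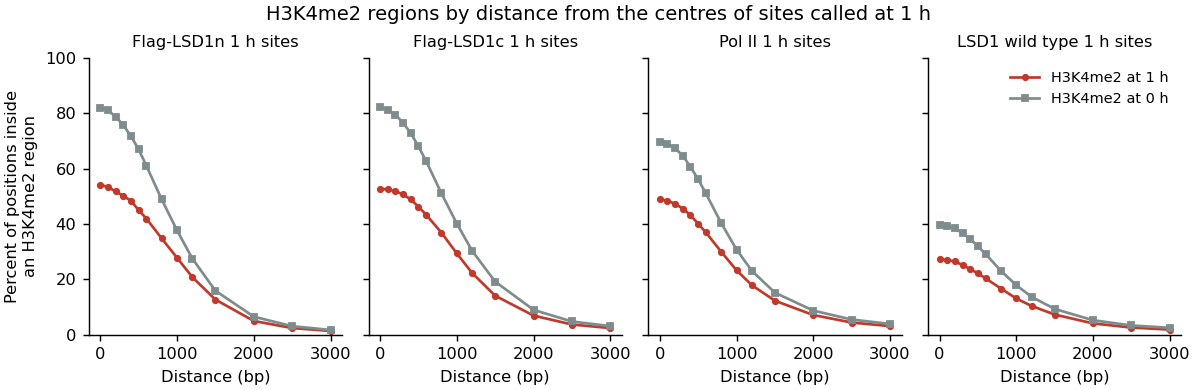
Percent of positions inside an H3K4me2 region (vertical axis) at each distance in bp from the centres of sites called at 1 h (horizontal axis, both sides averaged), at 1 h of KCl in red and 0 h in grey. The 1 h curve is below the 0 h curve at every plotted distance, by the most at the centre (54.2% and 82.1% for Flag-LSD1n).

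Inside split regions, sites lay in the opened gaps more often than the bases did. Of the split regions, 710 were in 2 pieces at 1 h, 25 in 3 and 4 in 4. The 766 gaps so opened had a median width of 1035 bp. Gaps made up 34.5% of the bases of split regions that hold a Flag-LSD1n 1 h site, and held 61.7% of the 277 site centres there; bases kept at 1 h made up 47.9% and held 35.7% (30.1 to 41.7). For Flag-LSD1c 1 h sites the gaps held 55.5% of centres and 34.1% of bases, for Pol II 1 h sites 51.5% and 32.8%, and for the LSD1 antibody at 1 h 48.6% and 33.8%. The differences were 27.2 points (21.2 to 33.0) for Flag-LSD1n, 21.4 points (16.5 to 26.2) for Flag-LSD1c and 18.7 points (15.2 to 22.2) for Pol II.

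Both sites and gaps lie near the middle of a region, which enters this comparison. The median Flag-LSD1n site lay at 28.6% of the way from the centre to the edge of its split region, the median Pol II site at 38.9%. Restricted to the middle 50% of each region's width, 69.8% (63.1 to 75.9) of Flag-LSD1n centres and 54.3% of bases were in gaps, 64.3% (58.5 to 69.9) and 56.0% for Flag-LSD1c, and 62.0% (57.7 to 66.2) and 50.6% for Pol II. The differences that remained were 15.5, 8.37 and 11.4 points. This restriction was chosen after the data were seen.

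**Figure D5:**
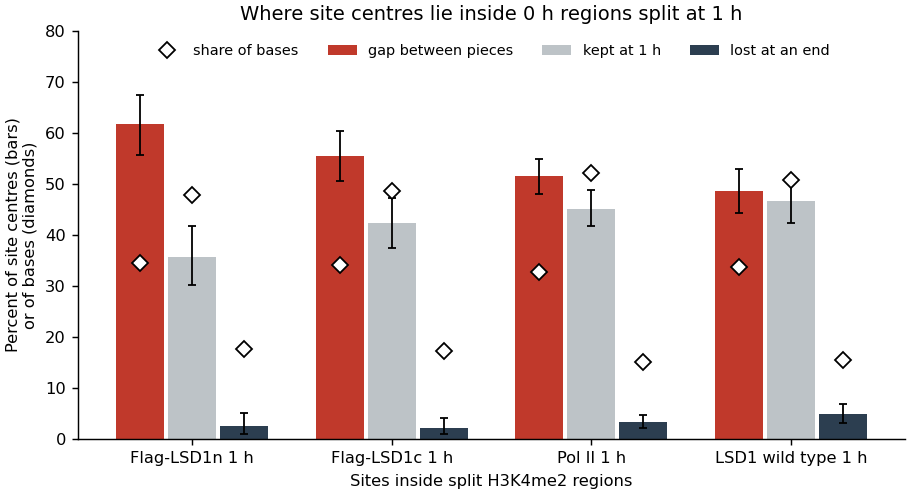
Percent of site centres (bars, with 95% exact intervals) and of bases (diamonds) of split 0 h regions that lie in a gap opened at 1 h (red), in bases kept at 1 h (grey) or in bases lost at an end (dark), for the site lists of 1 h. Bars exceed diamonds in the gaps (61.7% of centres and 34.5% of bases for Flag-LSD1n) and fall below them at the ends.

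Opened gaps can be set beside the gaps that closed between 0 h regions merged at 1 h. A Pol II 0 h centre lay in 49.2% (45.6 to 52.8) of the 766 opened gaps and in 24.6% (17.5 to 32.9) of the 130 closed ones, which had a similar median width of 947 bp. A Flag-LSD1n 1 h centre lay in 166 of the opened (18.8% to 24.8%) and 13 of the closed gaps (5.43% to 16.5%), and a Flag-LSD1c 1 h centre in 28.7% (25.5 to 32.1) and 13.8% (8.42 to 21.0). At least 1 of the 8 site lists was present in 70.5% (67.1 to 73.7) of opened and 43.1% (34.4 to 52.0) of closed gaps. H3K4me1 went the other way: at 0 h it covered 11.4% of the bases of opened gaps and 24.2% of those of closed gaps, and at 1 h 17.9% and 34.7%. An opened gap was thus more often a site of Pol II or LSD1 than a closed gap, and less often H3K4me1. The whole regions around the gaps differed too. Pol II at 0 h overlapped 91.5% (89.2 to 93.4) of split 0 h regions and 75.8% (67.5 to 82.8) of merged 1 h regions. Flag-LSD1c at 1 h overlapped 51.3% (47.6 to 54.9) and 35.6% (27.5 to 44.4) of them. For H3K4me1 at 0 h these shares were 70.4% and 63.6%, with overlapping ranges. How much of the contrast in sites was one between regions was not tested.

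In narrowed regions site centres lay in the kept part slightly more often than bases did. Of 1096 Flag-LSD1n 1 h centres in narrowed regions, 42.1% (39.1 to 45.0) lay in the bases kept at 1 h, which made up 35.1% of these regions. For Flag-LSD1c 1 h sites this was 39.5% (36.9 to 42.1) of centres and 35.3% of bases, and for Pol II 1 h sites 44.3% (42.4 to 46.2) and 36.3%. More than 50% of the centres of each of these 3 lists were thus in the part that was no longer called. The central position of sites enters here as well. The call was lost at 57.9% (55.0 to 60.9) of these Flag-LSD1n centres. It was lost at the region's own centre in 56.9% (53.8 to 59.8) of narrowed regions with such a site. For Pol II at 0 h these were 55.4% (53.4 to 57.3) and 53.9% (51.9 to 55.9). Site centres were thus close to the region's own centre in this respect. In pairs of similar width 90.0% (88.4 to 91.5) of Flag-LSD1n 1 h centres were in kept bases, against 77.1% of the bases. There the call was lost at 9.95% (8.49 to 11.6) of site centres and at 11.7% (10.1 to 13.4) of the regions' own centres.

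Some regions show these classes at their clearest; they are given in mm9, counted from 1, and lie outside chromosome 18 and outside regions called with all 8 antibody targets. Within these limits, the widest split regions in 4 pieces at 1 h were chr3:88002947-88027665 (24719 bp), chr13:83852473-83868211 (15739 bp) and chr5:123580794-123596284 (15491 bp). The first kept 77.6% of its bases and the other two 70.1% each. Each held 2 Pol II sites at 1 h and at 0 h, of which 1 site of 0 h, in the region on chromosome 13, lay in a gap. None held a Flag-LSD1n site, so these regions are not examples of the sites in gaps described above.

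The largest losses of width among pairs were at chr9:41389630-41397432, which was 2285 bp wide at 1 h and 7803 bp at 0 h, at chr2:38208926-38214772, with 1117 bp at 1 h and 5847 bp at 0 h, and at chr12:36880785-36885851, with 501 bp at 1 h and 5067 bp at 0 h. None of the 3 held a Flag-LSD1n or Flag-LSD1c site. The largest gains of width were at chr8:67169477-67169977, with 3637 bp at 1 h and 501 bp at 0 h, at chr8:8652812-8657248, with 6985 bp at 1 h and 4437 bp at 0 h, and at chr12:28021667-28022293, with 3055 bp at 1 h and 627 bp at 0 h. No site of any list lay in these last 3. Among lost or narrowed regions, those with the most Flag-LSD1n sites at 1 h had 2 each and had narrowed: chr7:99888393-99892453 measured 951 bp at 1 h, against 4061 bp at 0 h, chr4:45022702-45026450 measured 767 bp at 1 h, against 3749 bp at 0 h, and chr2:9999074-10002662 measured 1169 bp at 1 h, against 3589 bp at 0 h. At the second of these both tagged isoforms were called, and all 3 held a Pol II site at both times.

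The widest gained regions were chr2:65402109-65404733 (2625 bp), chr16:45405737-45408279 (2543 bp) and chr12:106693334-106695838 (2505 bp). The first had no site and no H3K4me1 at either time. The third had a Pol II site at 1 h alone and was covered by H3K4me1 over 67.6% at 1 h and over none of its length at 0 h. The widest lost regions, on chromosomes 14, 4 and 2, were 3921, 3905 and 3895 bp wide and held no tagged LSD1 site; the first had 1 Pol II site at 1 h and 2 at 0 h, and the third had neither.

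H3K4me1 and H3K36me3, mapped in LSD1n WT neurons at both times, moved the other way in width. The log2 ratio of covered length, 1 h over 0 h, was -0.41 for H3K4me2, 0.44 for H3K4me1 and 0.73 for H3K36me3, a mark of transcribed gene bodies. The median width ratio of matched pairs was 0.86 for H3K4me2, 1.15 for H3K4me1 and 1.11 for H3K36me3. H3K4me1 regions narrowed in 12.1% (11.6 to 12.5) and widened in 30.6% (30.0 to 31.2) of pairs, and 0.873% (0.781 to 0.973) of its 0 h regions were split. Among 0 h regions of 2500 bp or more the split share was 25.1% (23.2 to 27.0) for H3K4me2, 10.5% (9.15 to 12) for H3K4me1 and 16.6% (12.7 to 21.1) for H3K36me3. A Pol II 0 h centre lay in 49.2% of the gaps opened in H3K4me2 regions and in 5.83% (3.55 to 8.95) of those opened in H3K4me1 regions. For closed gaps these were 24.6% (17.5 to 32.9) and 15.8% (13.6 to 18.3), so in H3K4me1 the opened gaps had the lower share. Pol II at 0 h overlapped 91.5% of split H3K4me2 regions, and the share for whole H3K4me1 regions is not given here. The contrast of opened gaps may therefore be one between regions. H4K20me1, the remaining mark with lists at both times, has 1 list at 0 h and a pair at 1 h that differ from each other. Against the same 0 h list, the first 1 h list had a log2 ratio of covered length of 0.21 and a median width ratio of 1.01, and the second had -4.09 and 0.16. The second held 2769 regions, against 28248 in the first, and it is the only one of these 3 lists whose title has the prefix of the H3K4me2 libraries. The libraries of the other 3 marks were deeper than the H3K4me2 libraries. Apart from that second H4K20me1 list their titles have other prefixes, so mark, depth and prefix cannot be told apart.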

How the data were processed

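The submitters' processing notes name Bowtie, HOMER and build mm9, without versions. The deposited unit is genomic positions in bp; every deposited score equals 1, which leaves no signal to compare. Per the file headers, histone regions were stitched from peaks of 500 bp within 1250 bp, and Pol II and LSD1 sites were 200 bp wide, at least 500 bp apart and 4-fold above the surrounding 10 kb. The false discovery rate was 0.001, the fragment length 150 bp, at most 1 tag counted per position, and a control library is not mentioned. Total tags came from the headers.

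Chromosomes 1 to 19 were used. Overlaps, widths, classes and shares were computed with Python 3.11.15, numpy 2.4.6, pandas 2.3.3 and scipy 1.17.1, and figures with matplotlib 3.10.9. Shares have exact Clopper-Pearson intervals and ratios of region numbers conditional Poisson ones; the interval of a difference in points is that of the class share alone. On simulated lists all 7 planted classes were recovered exactly. Named positions are the 3 most extreme regions of each class by width, pieces or Flag-LSD1n sites, outside chromosome 18. Members and lists were chosen with earlier results of these data known. Alternatives were other overlap rules, merged regions, width thresholds, equal list lengths, all-target regions left out and the Pol II and H3K4me1 lists labelled LSD1n KO.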

Additional observations from a re-analysis of the deposited data

Results flagged for a closer look

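Chromosomes X, Y and M are outside the comparisons above, and regions of H3K4me2 were also called there. Chromosome X had 107 regions at 1 h and 164 at 0 h, chromosome Y had 18 at 1 h and 21 at 0 h, and chromosome M had 2 at 1 h and 2 at 0 h.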

How the results depend on the processing

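Of 116 alternative values for 30 results, 51 stayed within the interval given or within 1.5-fold, 62 moved and 3 reversed. For covered length the 1.5-fold margin is wider than the log2 ratio of -0.41 itself, so staying within it says little. With the share of tags in regions in place of length the log2 ratio was -0.15, which counts as within the margin. All shares of classes stayed on the same side of each other: losses exceeded gains and narrowing exceeded widening under each alternative run. With 50% of a region required, 39.6% were lost, 31.4% gained, 3.23% split and 32.6% of pairs narrowed. Counting a partner within 1 kb gave 24.5% lost, 13.2% gained and 6.01% split. Merging each list within its stitching distance gave 28.9%, 19.3% and 2.30%, and merging within 5 kb gave 26.4%, 17.2% and 0.679%, with 29.5% narrowed, 10.2% widened and a log2 ratio of region numbers of -0.16. Splitting is thus the class that depends most on how pieces are joined. Without all-target regions 21.2% were gained. With equal numbers of the widest regions 26.8% were lost, 22.3% gained, 4.90% split, 32.1% narrowed and 8.19% widened, and with the wider 50% of each list 33.2%, 25.7%, 1.92%, 24.1% and 3.81%. Narrowed and widened shares were 47.4% and 19.6% at a ratio of 1.2, 18.5% and 3.44% at a ratio of 2, 23.4% and 15.2% relative to the median ratio, and 39.5% and 3.28% for 0 h regions of at least 1000 bp.

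Setting each class beside all regions of the same widths, the class itself included, moved the overlap differences most. For lost, narrowed and split regions they became -1.05, 2.81 and 2.59 points for Flag-LSD1n, -1.06, 2.78 and 5.06 for Flag-LSD1c, -5.19, 2.03 and 5.61 for Pol II, and -0.199, -3.25 and -1.04 for H3K4me1, the last 2 reversed from 0.333 and 15.9. For gained regions they became -6.29 (Flag-LSD1n), -8.21 (Flag-LSD1c) and -14.9 (Pol II), and 2.84 for H3K4me1, reversed from -5.61. With sites within 1 kb counted, Pol II differed by -27.1, 19.1 and 31.6 points at lost, narrowed and split regions, and by 34.7 at split regions with the Pol II list labelled LSD1n KO. With 50% of the smaller region required, H3K4me1 differed by -2.80 points at lost and 8.65 at split regions. The excess of site centres in gaps was 21.1 points for Flag-LSD1n and 27.4 for Flag-LSD1c with the sites of 0 h, and 15.5, 8.37 and 11.4 points for Flag-LSD1n, Flag-LSD1c and Pol II in the middle 50% of each region. With the H3K4me1 lists labelled LSD1n KO, lost minus kept bases differed by -1.31 points at 1 h and 1.29 at 0 h, and gained minus kept bases by 10.3 at 1 h. Apart from width, the cause of these shifts was not tested.

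No paired analysis was possible because each time point has 1 list and no test was run; for the same reason no library could be left out. The gene lists planned at 1 kb and 5 kb from gene starts were not run, since no mm9 annotation was used here. Depth limits the lists to regions of at least 12 tags at 1 h and 13 at 0 h, so a lost region may still carry H3K4me2 below that number.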
